A study of Mus musculus with 8 samples.

Results

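The 8 transcription factors that specify and maintain midbrain dopaminergic neurons were examined in mice given the neurotoxin MPTP: Nr4a2, Pitx3, Foxa1, Foxa2, Lmx1a, Lmx1b, En1 and En2. They were taken by gene name from the deposited count table, and each of the 8 names matched 1 of its 21761 genes. The RNA was obtained by translating ribosome affinity purification, which pulls down messages bound to tagged ribosomes of a chosen cell type, here dopaminergic neurons of the mouse midbrain. All animals were C57BL/6, injected intraperitoneally once a day for 5 days and sampled 4 days after the last dose, with MPTP-HCl at 30 mg/kg of free base in 4 libraries and saline in the other 4. The sources used here name neither the transgene and promoter of the ribosome tag nor the age, sex or pooling of the mice. The sample labels say midbrain and the title of the deposited table says SN, while the shared protocol covers nigral and tegmental neurons, combined or separate.

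MPTP is oxidised in the brain to a toxin of mitochondrial complex I that enters dopaminergic neurons through the dopamine transporter. The 8 factors act in sequence and then together. Foxa1 and Foxa2, forkhead proteins that open chromatin, and the LIM homeodomain proteins Lmx1a and Lmx1b pattern the ventral midbrain floor and stay on in the adult neuron. The orphan nuclear receptor Nr4a2 (also called Nurr1) and the paired-like homeodomain protein Pitx3 then switch on the genes of dopamine synthesis and transport. En1 and En2, the Engrailed homeodomain proteins, are needed for these neurons to survive after birth, and mice with a lowered dose of En1 lose nigral neurons with age.

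None of the 8 factors passed the test for a difference between MPTP and saline. Each log2 fold change (MPTP minus saline, so that a negative value means a lower level in MPTP) lay between -0.18 for Nr4a2 and 0.05 for Lmx1b. It was below 0 in 6 of the 8 factors, and in 5 with upper quartile scaling, where En2 changed sign. For comparison, edgeR's quasi-likelihood test called 17 of 15999 genes at an adjusted p under 0.05, 0.106% of those tested, with 5 called lower (0.0313%), and 49.9% of all genes lay below 0. No factor had an unadjusted p under 0.05, a level that 8.78% of all genes reached, and DESeq2 and limma voom also called 0 of the 8. The 95% intervals were wide enough to hold moderate losses or small gains: that of Nr4a2 ran from 74.0% to 106% of the saline level and that of Foxa2 from 80.7% to 126%. The largest drop inside any of the 8 intervals was to 72.4% of saline, for Pitx3. The number of genes called in the whole table was 297 without saline 3, 8 without MPTP 4 and 10 without saline 1, and in each of these fits 0 of the 8 factors were called.

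Totals ran from 54192354 to 78892061 counts per library, and the factors drew between 751 and 21071 counts each. The label of the tissue was checked against markers. The summed level of 14 dopaminergic markers was 10345 to 12330 counts per 1000000 (CPM) in MPTP and 9284 to 15289 CPM in saline. Markers of other neurons were lower, though the lists differ in length. The 4 serotonergic markers summed to 21.6 to 59.9 CPM, and 4 noradrenergic markers to 0.152 to 2.16 CPM, with Dbh and Slc6a2 at 0 in at least 1 library. The 6 GABAergic markers summed to 218 to 383 CPM and 3 glutamatergic markers to 58.9 to 106 CPM. The 4 cholinergic and red nucleus markers summed to 12.0 to 25.5 CPM. These 3 sums were also highest in saline 3. The library saline 3 stood apart. It had the lowest dopaminergic sum of the 8 libraries (9284 CPM), the highest oligodendrocyte sum (1541 CPM, where saline 1, 2 and 4 had 724 to 888 CPM and MPTP had 1055 to 1208 CPM) and the highest serotonergic sum. Its values are therefore named throughout. The RNA is from bulk purifications, so fewer dopaminergic cells and less RNA per cell cannot be told apart.

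The order of the factors' levels was compared per length, as CPM per kilobase of exon. The length is the union of a gene's annotated exons, and the annotation on which reads were counted is not given, so levels of different genes compare only roughly. Nr4a2 stood first with 64.6 ± 13.4 in saline and 57.2 ± 3.64 in MPTP (SD, n = 4 each). En1 followed with 46.0 ± 8.80 and 41.2 ± 5.45, and Foxa1 with 28.5 ± 5.84 and 26.3 ± 2.17. These 3 kept the order Nr4a2, En1, Foxa1 in 8 of 8 libraries, although the ranges of neighbours over the libraries overlap. Then came Pitx3 at 11.7 ± 2.07 in saline, Foxa2 at 9.58 ± 2.20, En2 at 7.44 ± 0.607, Lmx1a at 6.39 ± 1.32 and Lmx1b at 3.04 ± 0.434. Pitx3 lay above Foxa2 in 6 of 8 libraries, the exceptions being MPTP 1 and MPTP 3, and Foxa2 above En2 in 7, the exception being saline 3, so these neighbours do not differ beyond their spread. The gaps between Foxa1 and Pitx3 and between Lmx1a and Lmx1b were the only neighbouring steps at which the ranges over the 8 libraries did not meet. The order of the group means per length was the same in MPTP as in saline. Without length, Nr4a2, En1 and Foxa1 still led in saline, at means of 262, 121 and 94.7 CPM. The order below them changed, to En2 (26.3 CPM), Foxa2 (22.7 CPM), Lmx1a (21.7 CPM), Pitx3 (17.9 CPM) and Lmx1b (14.9 CPM). Per length, Th, which encodes tyrosine hydroxylase, stood at 1121 ± 233 in saline and the dopamine transporter gene Slc6a3 at 989 ± 177, well above every factor.

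**Figure D1:**
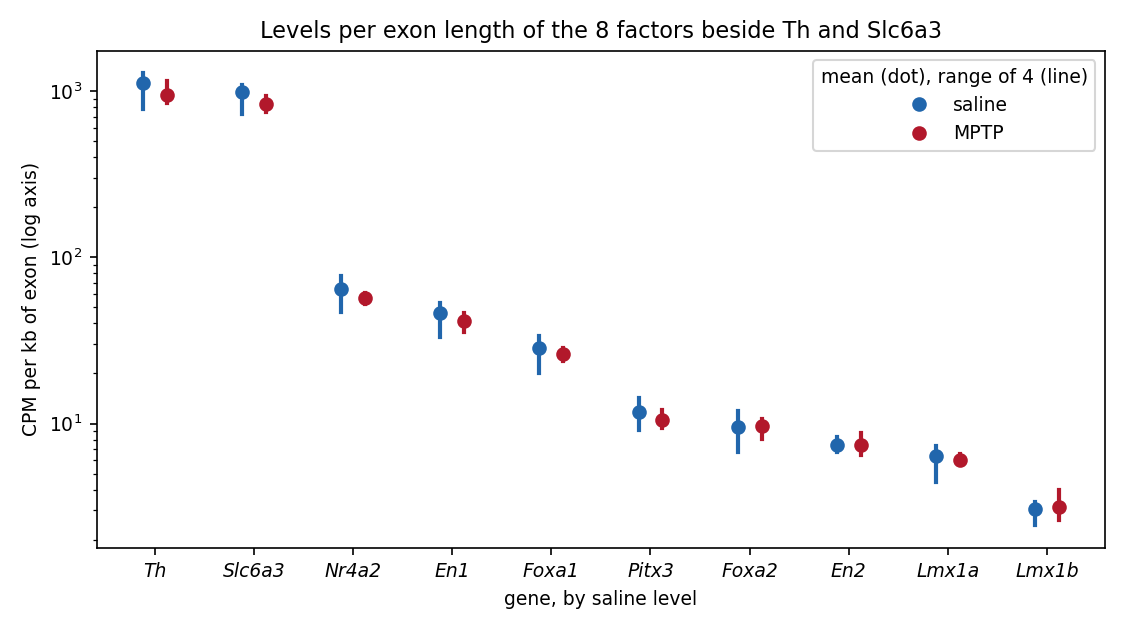
Level per exon length (CPM per kilobase of exon, log axis) of the 8 factors with Th and Slc6a3, ordered by the saline mean. Dots are means of 4 libraries and lines their range, and the 8 factors span from about 3.04 (Lmx1b) to 64.6 (Nr4a2) in saline with the same order of means in MPTP.

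Nr4a2 drives Th, Slc6a3, the vesicular transporter gene Slc18a2 and Ddc, and is the factor whose loss in mice removes the dopaminergic phenotype altogether. It lies on chromosome 2 (57106830 to 57124003, minus strand, GRCm38) and is protein-coding with 4059 exonic bases. Its levels in MPTP replicates 1 to 4 were 235, 212, 234 and 248 CPM, and in saline replicates 1 to 4 they were 254, 315, 190.0 and 290.0 CPM. The MPTP libraries lie close together, below 3 of the saline libraries and above saline 3, so the groups overlap. The log2 fold change was -0.18 (SE 0.12, adjusted p = 0.711).

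Pitx3, which activates Th in nigral neurons and the retinaldehyde dehydrogenase gene Aldh1a1, is on chromosome 19 (46135685 to 46148326, minus strand). It shares 10 exonic bases, 0.7% of its own, with Elovl3 on the other strand, and no other factor shares exonic bases with another gene. Pitx3 stood at 14.4, 16.8, 14.4 and 18.3 CPM in MPTP replicates 1 to 4 and at 17.6, 18.4, 14.0 and 21.6 CPM in saline replicates 1 to 4. MPTP 4 reaches into the saline values and saline 3 is the lowest library, so the groups overlap here too. The log2 fold change was -0.16 (SE 0.14, adjusted p = 0.776).

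**Figure D2:**
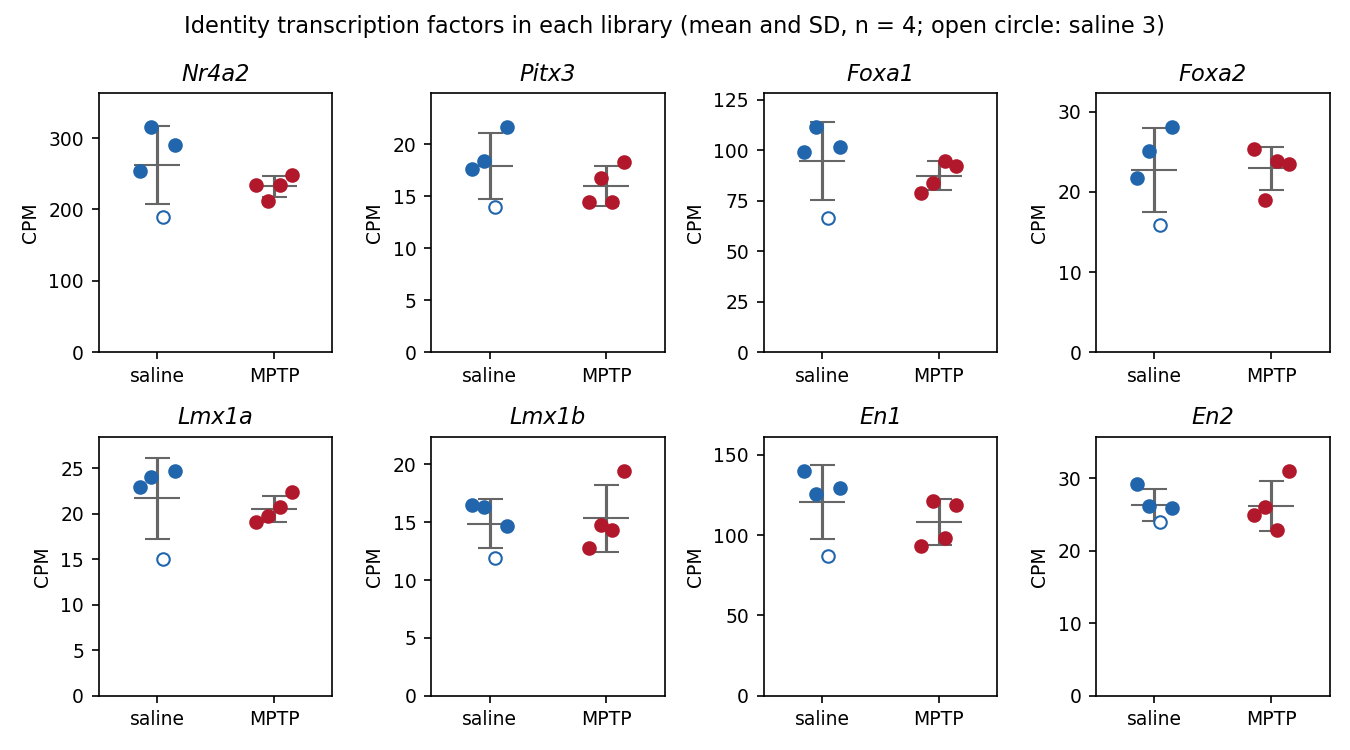
CPM (y axis, starting at 0) of each of the 8 factors in the 4 saline and 4 MPTP libraries, with the mean and SD as bars and saline 3 as the open circle. Saline 3 is the lowest of the 8 libraries for every factor but En2, and the groups overlap for all 8.

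Foxa1 (chromosome 12, 57540628 to 57546916, minus strand) and Foxa2 (chromosome 2, 148042877 to 148046969, minus strand) bind the same forkhead motif and share much of their function in these neurons. Foxa1 stood at 79.1, 83.9, 94.6 and 92.1 CPM in MPTP replicates 1 to 4 and at 99.0, 111, 66.7 and 102 CPM in saline replicates 1 to 4. The 4 MPTP libraries were below saline 1, 2 and 4 and above saline 3. The log2 fold change was -0.12 (SE 0.13, adjusted p = 0.835). Foxa2 stood at 25.3, 19.0, 23.8 and 23.5 CPM in MPTP and at 21.7, 25.1, 15.9 and 28.1 CPM in saline, replicates 1 to 4 in each. Its saline values spanned the whole MPTP range, and its log2 fold change was 0.01 (SE 0.15, adjusted p = 0.988). Per length, Foxa1 was 2.85 times Foxa2 (geometric mean of the 8 libraries).

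A forkhead match was looked for in the promoter windows of the factors, 250 bases before to 50 after a start in RefSeq's GRCm38.p6 annotation, for which 7 of the 8 factors had an entry. The letters TGTTTAC, on either strand, were in 1 of 9 windows of the factors, that of Foxa1, and in 3.65% of 32851 windows of all genes. The Foxa1 window (chr12:57546062-57546361, minus strand) is shown because it belongs to a gene of the family that reads these letters. It is printed along the gene, 5′ to 3′, with the match in capitals on the other strand, its first base at position -141 from the start.
Foxa1 promoter window: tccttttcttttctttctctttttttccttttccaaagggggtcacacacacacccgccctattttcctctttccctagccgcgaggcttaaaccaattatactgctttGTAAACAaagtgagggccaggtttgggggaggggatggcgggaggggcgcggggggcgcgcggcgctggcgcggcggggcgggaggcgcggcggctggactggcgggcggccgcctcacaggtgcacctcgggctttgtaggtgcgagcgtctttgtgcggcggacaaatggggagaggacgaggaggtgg
A match is only a run of letters and says nothing of binding in these neurons.

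Lmx1a (chromosome 1, 167689237 to 167848741, plus strand) and Lmx1b (chromosome 2, 33560965 to 33640511, minus strand) act in part in place of each other, and Lmx1b is also a factor of serotonergic neurons. Lmx1a stood at 19.2, 19.8, 20.8 and 22.4 CPM in MPTP replicates 1 to 4 and at 23.0, 24.0, 15.1 and 24.7 CPM in saline replicates 1 to 4. As for Foxa1, each MPTP library was below saline 1, 2 and 4 and above saline 3. The log2 fold change was -0.08 (SE 0.14, adjusted p = 0.908). Lmx1b stood at 12.8, 14.8, 14.3 and 19.5 CPM in MPTP and at 16.5, 16.3, 11.9 and 14.7 CPM in saline, replicates 1 to 4 in each. The highest value of all 8 libraries was MPTP 4 and the lowest saline 3. Its log2 fold change was 0.05 (SE 0.15, adjusted p = 0.955), and -0.09 without MPTP 4. The serotonergic sum beside it was 32.2 to 51.4 CPM in MPTP and 21.6 to 59.9 CPM in saline. The library highest in that sum, saline 3, was the lowest in Lmx1b. It was also the lowest for 7 of the 8 factors, so this says nothing of serotonergic content. Among the saline libraries, the log2 ratio of Lmx1b to Lmx1a per length was highest in saline 3 (-0.86). Among the MPTP libraries it was lowest in MPTP 1 (-1.11), which had their highest serotonergic sum. The part of serotonergic RNA in Lmx1b was not tested. Per length, Lmx1a was 2.01 times Lmx1b (geometric mean).

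En1 (chromosome 1, 120602418 to 120607992, plus strand) and En2 (chromosome 5, 28165694 to 28172166, plus strand) are paralogues. En1 is the dominant one for survival of dopaminergic neurons, and Engrailed protein given to the midbrain protects against complex I toxins in mice. En1 stood at 93.3, 121, 98.2 and 119 CPM in MPTP replicates 1 to 4 and at 140.2, 126, 87.3 and 129.6 CPM in saline replicates 1 to 4. Again saline 3 was the lowest library and the other saline libraries lay above all of MPTP. The log2 fold change was -0.16 (SE 0.13, adjusted p = 0.755). En2 stood at 25.0, 26.0, 22.8 and 31.1 CPM in MPTP and at 29.2, 26.2, 24.0 and 26.0 CPM in saline, replicates 1 to 4 in each. En2 varied least of the 8 over the libraries. MPTP and saline differed by -0.01 on the log2 scale (SE 0.11, adjusted p = 0.992). It was the only one whose lowest library was not saline 3 but MPTP 3. Per length, En1 was 5.82 times En2 (geometric mean).

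The AP-1 letters TGAGTCA were searched in the same windows because the AP-1 genes Jun and Atf3 are among the genes called higher in MPTP. They were in 1 of 9 windows of the factors, that of En1, and in 5.20% of all windows. The En1 window (chr1:120602237-120602536, plus strand, GRCm38.p6) reads as follows, with the match in capitals on the other strand, its first base at position -163 from the start.
En1 promoter window: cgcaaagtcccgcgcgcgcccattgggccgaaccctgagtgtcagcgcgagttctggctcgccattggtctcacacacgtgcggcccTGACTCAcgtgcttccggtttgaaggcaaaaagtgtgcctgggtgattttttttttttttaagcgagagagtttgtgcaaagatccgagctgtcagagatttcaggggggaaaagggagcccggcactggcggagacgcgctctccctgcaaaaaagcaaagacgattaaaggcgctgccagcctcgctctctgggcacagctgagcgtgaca
The bicoid-type letters TAATCC read by Pitx3, the homeodomain core TAATTA read by the Lmx1 and Engrailed proteins, and the NBRE letters AAAGGTCA read by Nr4a2 were in 0 of the 9 windows, and in 7.06%, 5.29% and 1.51% of all windows on either strand.

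Saline 3 was the lowest of the 8 libraries for 7 of the 8 factors, which holds for 13.0% of all genes tested. Without saline 3, all 8 log2 fold changes were below 0, and 4 factors no longer overlapped between the groups, namely Nr4a2, Foxa1, Lmx1a and En1. For these 4 the MPTP values already lay between saline 3 and the other saline libraries. Their separation thus follows from leaving out saline 3 and is no added evidence. In that fit 7.52% of all genes were lower without overlap. The log2 fold change of Nr4a2 was then -0.30 (SE 0.09, adjusted p = 0.0838), that of En1 -0.29 (SE 0.10, adjusted p = 0.153) and that of Foxa1 -0.25 (SE 0.09, adjusted p = 0.163), by edgeR's quasi-likelihood test. Those of Pitx3 and Lmx1a were -0.26 and -0.22, whereas Foxa2 (-0.12), Lmx1b (-0.05) and En2 (-0.05) stayed nearer 0. None of the 8 passed, against 1.84% of all genes that did. The unadjusted p was under 0.05 for 3 of them and for 16.9% of all genes. Whether the factors differ from each other in their change was not tested.

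**Figure D3:**
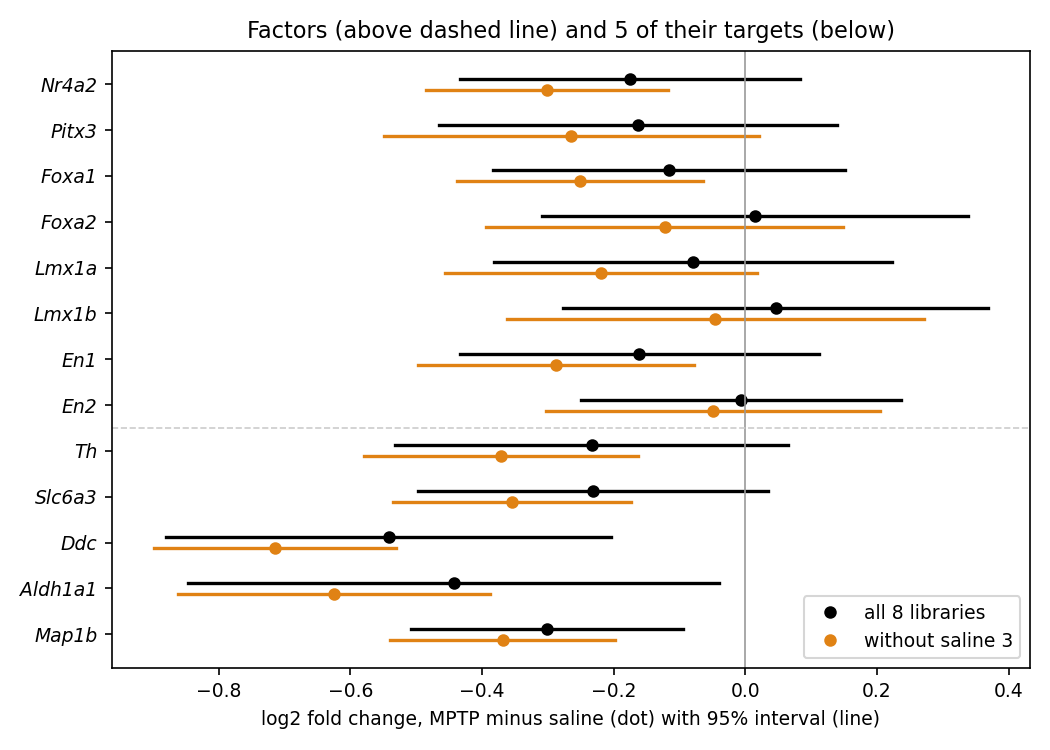
Log2 fold change, MPTP minus saline, with its 95% interval for the 8 factors (above the dashed line) and for Th, Slc6a3, Ddc, Aldh1a1 and Map1b (below it), with all 8 libraries in black and without saline 3 in orange. All intervals of the factors hold 0 with 8 libraries, and those of Nr4a2, Foxa1 and En1 lie below 0 without saline 3.

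The factors were set beside marker scores of each library. A dopaminergic score, the mean log2 CPM of the 14 markers, none of them a transcription factor, was 8.50 in saline 3, 9.10 to 9.16 in saline 1, 2 and 4, and 8.65 to 8.92 in MPTP. Of those 14 markers, 10 are also targets described further on. A non-neuronal score from astrocyte, oligodendrocyte, microglia and endothelial markers ran the other way, with 3.30 in saline 3, 2.20 to 2.58 in saline 1, 2 and 4, and 2.73 to 3.12 in MPTP. Of the markers of each list, 7 of 7 astrocyte, 8 of 8 oligodendrocyte, 5 of 8 microglia and 3 of 7 endothelial genes had a log2 fold change above 0, and 0 of these passed. None of these markers was at 0 in any library. Relative to the dopaminergic score, Lmx1a spread over 0.24 log2 units across the 8 libraries, against 0.71 for its own log2 CPM. Nr4a2 spread over 0.36 against 0.73, and 7 of the 8 factors had a narrower range on that relative scale, as did 14.5% of all genes. The narrowing was small for Foxa2 (0.70 against 0.82) and Lmx1b (0.58 against 0.70), and the range of En2 was wider (0.54 against 0.44). On that scale the MPTP mean lay above the saline mean for all 8 factors, from 0.04 for Pitx3 to 0.23 for Lmx1b, and the groups overlapped for each. The score averaged lower in MPTP, and subtracting it raises every gene in MPTP by the same amount. These signs are therefore no result about the factors, and the share of all genes above 0 was not counted. With the dopaminergic score as a covariate of the fit, the log2 fold change was 0.21 for Lmx1b, 0.20 for Foxa2, 0.14 for Lmx1a, 0.093 for Foxa1, 0.069 for En2, 0.042 for En1, 0.0099 for Nr4a2 and -0.0089 for Pitx3, with 0 of the 8 factors and 0.100% of all genes called. With the non-neuronal score it was 0.24 for Foxa2, 0.16 for Lmx1b, 0.12 for Lmx1a, 0.080 for Foxa1, 0.029 for En2, 0.022 for Nr4a2, -0.030 for Pitx3 and -0.031 for En1, with 0 of the 8 factors and 0.106% of all genes called. Both fits thus left Pitx3 just below 0, and En1 had opposite signs in them. Without saline 3 both scores separate the groups completely, so that marker content and treatment cannot be told apart in those 7 libraries.

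**Figure D4:**
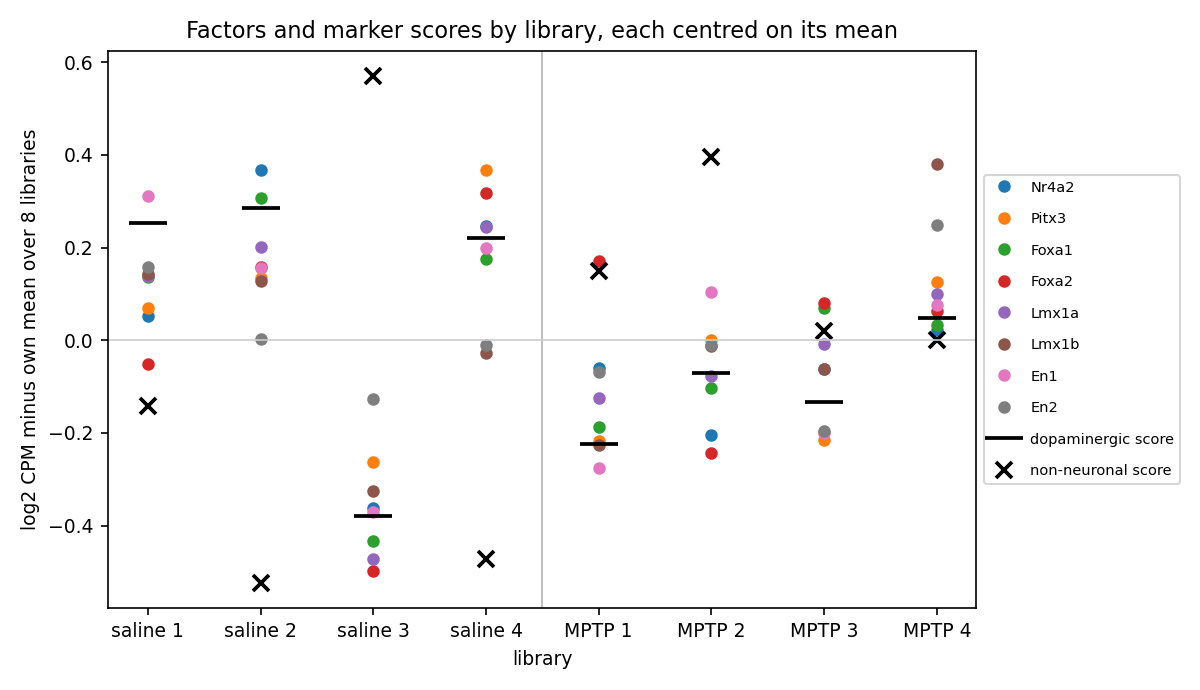
Log2 CPM of each factor (coloured dots), the dopaminergic score (dash) and the non-neuronal score (cross) in each library, each minus its own mean over the 8 libraries (y axis, log2 units). In saline 3 all 8 factors and the dopaminergic score lie below 0 and the non-neuronal score is at its highest, whereas in saline 2 no factor lies below 0.

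The balance between related factors was read within each library, where depth cancels. The log2 ratio of Foxa2 to Foxa1 per length was -1.45 ± 0.21 in MPTP and -1.58 ± 0.15 in saline. That of Lmx1b to Lmx1a was -0.96 ± 0.17 and -1.06 ± 0.17, and that of En2 to En1 was -2.47 ± 0.15 and -2.61 ± 0.21 (SD, n = 4 each). In each of these ratios the less abundant paralogue stood slightly higher in MPTP on average, by 0.13, 0.10 and 0.14, and in each the groups overlapped. The ratio of Pitx3 to Nr4a2 was -2.45 in both groups, with SDs of 0.18 in MPTP and 0.16 in saline.

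Genes known to depend on these factors were read from the same fit. Of 18 such targets, 0 passed with all 8 libraries by edgeR, DESeq2 or limma voom, with 4 (and 8.78% of all genes) at an unadjusted p under 0.05 by edgeR. Log2 fold changes were below 0 in 14 of the 18, with a median of -0.14 beside 0.00 over all genes tested, and the median of the 8 factors was -0.10. Th had -0.23 (adjusted p = 0.660) and Slc6a3 -0.23 (adjusted p = 0.618). The targets with the smallest p were Ddc, the decarboxylase that makes dopamine (-0.54, adjusted p = 0.396), the microtubule protein gene Map1b (-0.30, adjusted p = 0.415), the neuropeptide gene Vip (0.52, adjusted p = 0.483) and Aldh1a1 (-0.44, adjusted p = 0.517, and -0.26 without saline 2). Map1b alone of the 18 was lower in every MPTP library than in every saline library, at 1380.1 to 1459.9 CPM against 1499 to 1972 CPM. Such lower levels without overlap were found for 2.14% of all genes.

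Without saline 3, 5 of the 18 targets passed, all lower in MPTP: Slc6a3 (log2 fold change -0.35, adjusted p = 0.0463), Ddc (-0.71, adjusted p = 0.000468), Aldh1a1 (-0.63, adjusted p = 0.0132), Klhl1 (-0.44, adjusted p = 0.0252) and Map1b (-0.37, adjusted p = 0.0315). In that fit 0.983% of all genes were called lower, and saline 3 is the library with the lowest dopaminergic sum. Slc6a3, Ddc and Aldh1a1 are themselves markers in that sum, and saline 3 was the lowest saline library for each of the 5. These calls thus follow in part from leaving out saline 3 and are no added evidence. Klhl1, which encodes an actin-binding Kelch protein, was named after its values were seen. None of the other libraries gave a call on any target when left out.

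Ddc was also the target whose ratio to Nr4a2 separated the groups. The ratio of the CPM of Ddc to that of Nr4a2 was 3.79, 3.99, 4.08 and 3.60 in MPTP replicates 1 to 4 and 6.41, 4.79, 4.23 and 4.41 in saline replicates 1 to 4. It was lower in each MPTP library than in each saline library, saline 3 included. Among the 18 targets this held for Ddc alone, among the other 7 factors for 0, and among all genes for 0.294%. The ratio was chosen after the levels were seen and carries no test. Aldh1a1 to Nr4a2 was 6.54 to 8.15 in MPTP and 7.06 to 9.77 in saline, and Th to Nr4a2 was 8.52 to 10.9 and 8.71 to 11.9, so both overlapped. The NBRE letters AAAGGTCA are the half-site that Nr4a2 binds as a monomer. They were in 1 of 23 promoter windows found for 15 of the 18 targets, that of Ddc, and in 1.51% of all windows. The match says nothing of binding in these neurons, and whether they use this start of Ddc was not tested. The Ddc window (chr11:11898095-11898394, minus strand, GRCm38.p6) is shown as the only one with these letters. The match is in capitals on the other strand, its first base at position -73 from the start.
Ddc promoter window: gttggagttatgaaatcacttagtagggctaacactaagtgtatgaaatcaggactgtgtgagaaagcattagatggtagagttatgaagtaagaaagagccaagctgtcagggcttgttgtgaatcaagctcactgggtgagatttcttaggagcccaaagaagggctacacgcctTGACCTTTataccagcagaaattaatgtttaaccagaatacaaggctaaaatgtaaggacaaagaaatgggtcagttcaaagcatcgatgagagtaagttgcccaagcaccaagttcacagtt
Of the other motifs, TAATCC was in the windows of Map1b, TGTTTAC in those of Dlk1 and TGAGTCA in those of Aldh1a1, each in 1 of the 23, and TAATTA in 0. Their shares of all windows were 7.06%, 3.65%, 5.20% and 5.29%.

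Partner proteins of the factors include the retinoid X receptors that pair with Nr4a2 and the adaptors of LIM-domain proteins. Of 19 partner genes 0 passed with 8 libraries by the 3 tools, with 3 (and 8.78% of all genes) at an unadjusted p under 0.05 by edgeR, and 10 lay below 0 (median -0.02). Among those with the smallest p were the LIM-only gene Lmo4 (log2 fold change -0.26, adjusted p = 0.480) and the beta-catenin gene Ctnnb1 (-0.20, adjusted p = 0.566). Without saline 3 Lmo4 was called lower by edgeR (-0.34, adjusted p = 0.0498), as 1 of the 19 and beside 0.983% of all genes. Saline 3 was the lowest saline library for Lmo4, so this call is no added evidence.

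Other members of the same protein families were low, at group means of at most 10.8 CPM (Lhx9 in MPTP). Foxa3, Pitx1 and Isl1 were too low to be tested, with at most 8, 48 and 46 counts in any library. The other 7 of 10 relatives were tested, 0 passed by any of the 3 tools, 0 had an unadjusted p under 0.05, and all 7 lay above 0 with a median of 0.35. Nr4a1, the activity-induced relative of Nr4a2, averaged 4.30 ± 1.31 CPM under MPTP against 3.10 ± 0.740 CPM under saline (SD, n = 4, log2 fold change 0.48, adjusted p = 0.637 by edgeR). The LIM homeodomain genes Lhx1 (0.37, adjusted p = 0.607), Lhx2 (0.17, adjusted p = 0.877) and Lhx9 (0.05, adjusted p = 0.973) were the others named. Single libraries moved these values: Nr4a1 had 0.28 without MPTP 2. Lhx2 had 0.038 without saline 2, 0.049 without MPTP 2 and 0.41 without saline 3, and Lhx9 had -0.12 without saline 1 and 0.27 without saline 3. The GABAergic sum ran beside them from 218 to 334 CPM in MPTP and from 219 to 383 CPM in saline. The glutamatergic sum ran from 71.9 to 94.0 CPM in MPTP and from 58.9 to 106 CPM in saline. Both sums and Lhx9 were highest in saline 3, and the glutamatergic sum and Lhx9 were lowest in saline 1. The part of either sum in these values was not tested.

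Of 19 other transcription factors of adult dopaminergic neurons, 0 passed with 8 libraries by the 3 tools, with 3 (and 8.78% of all genes) at an unadjusted p under 0.05 by edgeR and a median of 0.03. Satb1, a chromatin organiser, had a log2 fold change of -0.35 (adjusted p = 0.415), and Sox6, a nigral subtype factor, -0.27 (adjusted p = 0.490). Both were named for p values among the smallest of the 19, which were also smaller than those of the 8 identity factors. Without saline 3, 2 of the 19 were called lower by edgeR, Satb1 and Sox6 (adjusted p = 0.0265 and 0.0464), as were 0.983% of all genes. Saline 3 was the lowest saline library for both, so these calls are no added evidence. The zinc finger gene Bcl11a had 0.30 (adjusted p = 0.415) and was higher in each MPTP library (30.4 to 34.9 CPM) than in each saline library (24.8 to 28.9 CPM). Bnc2, another zinc finger gene, had -0.16 (adjusted p = 0.601) and was lower in each MPTP library (60.6 to 67.5 CPM) than in each saline library (68.3 to 74.5 CPM). Groups that do not overlap, in either direction, were found for 4.19% of all genes.

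Genes of the embryonic ventral midbrain were low, at group means of at most 17.4 CPM (Wnt5a in MPTP). Of 18, Fgf8 had 0 counts in all 8 libraries, 17 were tested, 0 passed by the 3 tools, 2 (and 8.78% of all genes) had an unadjusted p under 0.05 by edgeR, and 13 lay above 0 (median 0.21). Sox2, a stem cell factor also made by glia, averaged 3.02 ± 0.449 CPM under MPTP against 1.95 ± 0.561 CPM under saline (SD, n = 4, log2 fold change 0.64, adjusted p = 0.531). Wnt5a (0.18, adjusted p = 0.745) and Pax5 (0.25, adjusted p = 0.828) were also named. Wnt5a had 0.041 without MPTP 1. Pax5 had 0.63 without saline 3, and 0.10, 0.14 and 0.14 without saline 2, saline 4 and MPTP 4. Gbx2, the second gene with an unadjusted p under 0.05, averaged 1.23 and 0.442 CPM and is named after its values were seen. The astrocyte sum beside Sox2 was 252 to 278 CPM in MPTP and 221 to 272 CPM in saline. Most of that sum came from Slc1a2, at 196 to 216 CPM in MPTP and 180 to 205 CPM in saline, so it says little of the other astrocyte markers. All 7 astrocyte markers had a log2 fold change above 0, with a median of 0.28, and 0 passed. The part of astrocyte RNA in Sox2 was not tested.

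The genes with the most similar pattern over the 8 libraries were found by the root mean square difference of log2 CPM, each gene centred on its own mean. For Nr4a2 they were the annexin gene Anxa7 (0.055) and the transcription factor gene Ebf3 (0.056), and for Foxa1 Anxa7 (0.053) and the GABA receptor subunit gene Gabra4 (0.060). Foxa2 was closest to the muscarinic receptor gene Chrm5 (0.046) and to Cenpl (0.087), and En1 to the nicotinic receptor subunit gene Chrnb3 (0.064) and to Nos1ap (0.072). Lmx1a was closest to Rab11fip1 (0.050) and Cpne7 (0.059), Lmx1b to Dram2 (0.067) and Tmem117 (0.082), Pitx3 to Noc4l (0.057) and Mrpl54 (0.071), and En2 to Hdac3 (0.036) and Tfb1m (0.036). The median over the 12176 genes compared was between 0.215 for En2 and 0.287 for Foxa2. Among the factors themselves Foxa1 and Lmx1a were the most alike (0.064) and Foxa2 and En1 the least (0.265). All of these likenesses rest on the same 8 libraries, saline 3 included.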

How the data were processed

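Raw read counts per gene were deposited by the authors in 1 table of 21761 genes with 8 library columns, each matched to 1 sample by its title, and 0 columns were left over. Gene symbols that had become dates were restored for 27 genes by identifier. TopHat2 2.0.8 and mm10 are named in the submitters' processing notes. How reads were counted, on which annotation and with which strand setting, is not given in the sources used here. Reads were single-end, 100 bp long and without molecular identifiers, from NuGEN-amplified cDNA, per the labels' protocols. Nothing says that replicates are separate animals, so a p-value here reflects the spread between samples, which may be technical. No replicates agreed within sampling noise.

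Counts were tested with edgeR 4.0.16 in R 4.3.3 (TMM scaling, filterByExpr, robust quasi-likelihood F-test, no covariate, 15999 genes). P-values were adjusted by Benjamini-Hochberg over all genes tested, with 0.05 as the threshold. SE was taken from each estimate and its F statistic, and 95% intervals use the fit's degrees of freedom. CPM are relative to TMM-scaled totals, log2 CPM uses a prior count of 2, and positions and exon lengths (the union of a gene's exons) are from GENCODE vM21. Alternatives used DESeq2 1.42.0, limma 3.58.1, other scalings, filters, covariates, the replicate block and leaving out each library. The test was checked on simulated counts. The factors and lists were chosen with earlier results of these data known. From each list the rule named genes past the threshold and up to 4 with the smallest p whose mean log2 CPM reached 1, and per factor the 2 genes of most similar pattern. Some genes that the rule named are not reported here.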

Additional observations from a re-analysis of the deposited data

Results flagged for a closer look

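Among the genes named, 60 groups of 4 libraries were examined for a library far from the other 3, and 2 were found, where chance gives about 1 in 20. Slc6a3 stood at 2505 CPM in saline 3, and the nearest saline library was at 3616 CPM. Sox6 stood at 44.6 CPM in MPTP 1, and the nearest MPTP library was at 48.4 CPM. For none of the 8 identity factors was a library that far from the rest of its group, saline 3 included.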

How the results depend on the processing

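None of the 8 factors passed the threshold in any of the 17 alternatives, and the lowest adjusted p was 0.0838, for Nr4a2 without saline 3. Signs near 0 were unstable. Adjusting for the non-neuronal score turned the sign for Nr4a2 (0.022), Foxa1 (0.080), Lmx1a (0.12), En2 (0.029), Lhx2 (-0.026) and Lhx9 (-0.098), and adjusting for the dopaminergic score did so for Nr4a2 (0.0099), Foxa1 (0.093), Lmx1a (0.14), En1 (0.042), En2 (0.069) and Lhx9 (-0.20). It also turned for En2 with upper quartile scaling (0.0053) and, with limma voom, for Foxa2 (-0.031) and Lmx1b (-0.0095). The cause was not tested. Leaving out each library in turn gave -0.12 to 0.14 for Foxa2, -0.087 to 0.13 for Lmx1b, -0.096 to 0.055 for En2, -0.12 to 0.27 for Lhx9, -0.30 to -0.074 for Nr4a2, -0.26 to -0.056 for Pitx3, -0.25 to -0.028 for Foxa1, -0.22 to -0.0079 for Lmx1a and -0.29 to -0.077 for En1. The sign turned for Foxa2 without MPTP 1 (-0.037), MPTP 3 (-0.0038), saline 1 (-0.0024) or saline 3 (-0.12), for Lmx1b without MPTP 4 (-0.087) or saline 3 (-0.045), and for En2 without MPTP 1 (0.017), MPTP 3 (0.055) or saline 1 (0.051). Genes called in the whole table numbered 8 to 297 in these fits, 8 to 138 higher and 0 to 159 lower. They numbered 11 with a mean CPM of at least 5 (7 higher), where fewer genes were tested, and 55 with DESeq2 (24 higher and 31 lower). With the replicate block 14 genes were called and 0 of the 8 factors. Same-numbered libraries correlated at -0.116 to 0.039 in their deviations, so the numbers were not taken as pairs. Without exon length the log2 ratios were -2.001 for Foxa2 to Foxa1, -0.48 for Lmx1b to Lmx1a and -2.11 for En2 to En1.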
